A study of Mus musculus with 50 samples.

Results

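Pla2g2a, Pla2g5, Pla2g10, Pla2g12a and Pla2g3 encode secreted phospholipases A2, and their RNA levels were described in the mouse colon across 10 groups of 5 arrays. They are 5 of the 19494 genes measured and were taken by name, with their log2 signals over these same groups in view. Differences between groups in these 5 genes are therefore given as a description, with no test. Values are log2 signals, so a difference of 1 is a doubling of the signal, and levels of different genes are not set against each other because each is read by its own probes. Another 7 genes listed with the secreted phospholipase family were measured and are given beside them, from a list that was also written with earlier results of these data known. They are called the other secreted phospholipases here, which does not say that each encodes an active enzyme.

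Secreted phospholipases A2 are small, disulfide-rich, calcium-dependent enzymes that release a fatty acid and a lysophospholipid from membrane phospholipids. The fatty acid can be arachidonic acid, the precursor of prostaglandins and leukotrienes, and the lysophospholipid can be reacylated or act on receptors of its own. Pla2g2a, the group IIA enzyme, kills Gram-positive bacteria by attacking their membranes, is stored in Paneth cells of the mouse small intestine, and is induced by inflammatory cytokines in several cultured cell types. In the mouse it is also known as Mom1, a modifier of intestinal tumour number in mice with a mutant Apc gene, and several laboratory strains carry a frameshift in it and lack the active enzyme.

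RNA came from whole colon tissue of mice aged 10 to 12 weeks, with 1 array per mouse. This age is from the series description. Ages written per sample do not all match it and were not used. FADD IEC-KO and CASP8 IEC-KO mice lack Fadd, an adaptor of death receptors, or Casp8, the protease it activates, in intestinal epithelial cells. Both were measured in a first series, with array titles numbered 1 to 30, and in a second, numbered 86 to 124. The co-deletions were FADD IEC-KO Zbp1 -/- and, on either single knockout, Mlkl -/- (FADD IEC-KO Mlkl -/-, CASP8 IEC-KO Mlkl -/-) in the first series, and FADD IEC-KO RIPK3 IEC-KO in the second, which remove a sensor (Zbp1), a kinase (Ripk3) or the executioner (Mlkl) of necroptosis. Zbp1 and Mlkl carry a -/- allele pair, and RIPK3 is deleted in epithelial cells alone, per the genotype label. The floxed mice were Fadd fl/fl in the first series and Casp8 fl/fl in the second, so that FADD IEC-KO mice of the second series and CASP8 IEC-KO mice of the first were compared with the floxed mice of the other gene. The sources used here give neither the Cre driver nor the mouse strain, nor what sets the title-number series apart. RNA of whole colon holds muscle, immune and epithelial cells, so an epithelial deletion leaves the transcript of other cells in the sample, and fewer cells of a type cannot be told apart from less RNA per cell. Nothing in the labels says whether the mice of a group came from separate litters, so p-values measure the spread between these mice.

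Of the 5 targeted genes, Fadd, Casp8 and Mlkl were lower than in floxed colons where deleted, and Zbp1 and Ripk3 were not clearly so. Fadd averaged 6.39 ± 0.12 in FADD IEC-KO mice of the first series, against 7.38 ± 0.18 in Fadd fl/fl mice (SD, n = 5 each), and Casp8 averaged 8.98 ± 0.32 in CASP8 IEC-KO mice of the second series, against 10.50 ± 0.15 in Casp8 fl/fl mice (SD, n = 5 each). Mlkl averaged 7.17 ± 0.12 in FADD IEC-KO Mlkl -/- mice, against 9.12 ± 0.30 in FADD IEC-KO mice of the first series and 8.25 ± 0.20 in Fadd fl/fl mice (SD, n = 5 each). Zbp1 averaged 5.49 ± 0.50 in FADD IEC-KO Zbp1 -/- mice, against 7.29 ± 0.61 in FADD IEC-KO and 5.68 ± 0.19 in Fadd fl/fl mice, whose range it overlapped (SD, n = 5 each). Ripk3 averaged 6.68 ± 0.13 in FADD IEC-KO RIPK3 IEC-KO mice, against 8.09 ± 0.52 in FADD IEC-KO mice of the second series and 6.60 ± 0.19 in Casp8 fl/fl mice (SD, n = 5 each). Zbp1 and Ripk3 were therefore clearly lower only against FADD IEC-KO mice, in which both genes were higher than in floxed mice. Ripk3 was also lower in FADD IEC-KO Mlkl -/- mice, which keep it. There it averaged 7.17 ± 0.14, against 8.33 ± 0.81 in FADD IEC-KO mice of the first series (SD, n = 5 each). A fall against FADD IEC-KO mice thus does not by itself show these deletions. The epithelial markers, a list of 9 genes that includes Epcam and Cdh1, had a mean between 10.53 and 11.07 on every array. The 6 colonocyte markers, of mature absorptive cells, had a mean of 10.24 to 11.84 (median 11.13) in FADD IEC-KO mice of the first series, against 11.43 to 11.69 in Fadd fl/fl mice. Markers of smooth muscle, neutrophils, macrophages and B and plasma cells also moved with the genotypes, and their values follow. The labels do not give the sex of the mice. By Y-linked genes both sexes were in every group, from 1 male and 4 females in CASP8 IEC-KO of the second series to 4 males and 1 female in FADD IEC-KO RIPK3 IEC-KO. In FADD IEC-KO mice of the first series, replicates 22 and 23 had the highest neutrophil marker means. Totals over the lists of genes around these enzymes are given with and without them. So are counts of the other secreted phospholipases where any passed. Counts of other single lists and of cell type markers are given only with them included. Shares of all genes are given only with every array included, so counts without some arrays have no background beside them.

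Pla2g2a lies on chromosome 4, within the annotated span of Pla2g5, and in the RefSeq annotation of GRCm38.p6 it is a transcribed pseudogene. A signal of its probe set therefore reports RNA and not an active enzyme, whose presence was not measured. From the annotation, the order of measured genes along this stretch is Ubxn10, Pla2g2c, Pla2g2f, Pla2g2d, Pla2g5, Pla2g2a, Pla2g2e and Otud3, while Pla2g10 is on chromosome 16, Pla2g12a on chromosome 3 and Pla2g3 on chromosome 11. Promoter windows were at hand for 3 of the 5 genes (Pla2g5 with a pair of start sites, Pla2g10 and Pla2g12a), from RefSeq with GRCm38.p6. The windows of Pla2g5 are shown because this gene overlaps Pla2g2a. Over the arrays its level went with that of Pla2g2a only in part (Pearson's r 0.58, rank 1138 among all genes). Without FADD IEC-KO replicates 22 and 23, r was 0.77 (rank 120). Each window holds the 250 bases before a start, printed 5′ to 3′ on the strand of the gene, with matches to the motif searched in capitals.
Pla2g5 first start, chr4:138863470-138863719, minus strand: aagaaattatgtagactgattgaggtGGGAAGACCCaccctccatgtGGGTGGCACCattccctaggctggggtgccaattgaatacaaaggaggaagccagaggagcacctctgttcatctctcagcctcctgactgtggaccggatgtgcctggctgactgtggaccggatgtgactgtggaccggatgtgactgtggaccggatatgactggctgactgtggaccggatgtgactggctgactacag
Pla2g5 second start, chr4:138819258-138819507, minus strand: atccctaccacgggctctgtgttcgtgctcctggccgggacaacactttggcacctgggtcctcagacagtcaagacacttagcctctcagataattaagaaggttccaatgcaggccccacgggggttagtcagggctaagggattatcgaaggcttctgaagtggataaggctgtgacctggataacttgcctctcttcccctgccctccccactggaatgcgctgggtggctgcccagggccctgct
The motifs searched, on both strands, were TTCNNNGAA (STAT), TTGCNNAA (CEBP), TGANTCA (AP-1), GGG NNNNN CC (NF-kappaB, spaced here for reading), TATAAA and TTTC NN TTTC (ISRE, spaced likewise). The first Pla2g5 window held GGGAAGACCC, which matches the NF-kappaB motif on both strands, and GGGTGGCACC, a further match that does not overlap it. That motif is in 45.8% of 32851 promoter windows of the same length, so its presence is common. The second window held none of the 6 motifs, nor did that of Pla2g10. The Pla2g12a window held TTGCNNAA, which 9.56% of windows have, and the NF-kappaB motif. A match is a run of letters and not a site of binding.

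Pla2g2a was the member whose level varied most. It was highest in FADD IEC-KO colons of both series, intermediate in CASP8 IEC-KO colons and in the co-deletions of FADD IEC-KO, and lowest in CASP8 IEC-KO Mlkl -/- and floxed colons. In FADD IEC-KO mice of the first series, replicates 21 to 25 had Pla2g2a signals of 8.32, 10.70, 10.81, 9.74 and 8.85 in that order. In Fadd fl/fl mice, replicates 26 to 30 had 6.34, 4.94, 5.58, 6.00 and 4.91. The lowest FADD IEC-KO array lay above the highest Fadd fl/fl array, and replicates 22 and 23 were the highest of all 50 arrays. The mean difference was 4.13 (SE 0.54, n = 5 against 5), a ratio of 17.5. Groups that did not overlap, with the FADD IEC-KO arrays above, were found for 4.23% of all 19494 genes, a share printed as background to a gene chosen on these values.

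In FADD IEC-KO mice of the second series, replicates 89, 95, 117, 120 and 124 had 8.02, 6.33, 10.22, 8.89 and 10.16. In Casp8 fl/fl mice, replicates 86, 91, 98, 105 and 119 had 4.92, 5.85, 6.03, 6.09 and 5.75. All 5 FADD IEC-KO arrays were again above all 5 floxed arrays, although replicate 95 was close to the floxed range and far from the other 4. The mean difference was 3.00 (SE 0.54), a ratio of 7.99, and 4.51% of all genes were without overlap in this direction. Pla2g2a had a SD of 1.10 in FADD IEC-KO mice of the first series and 1.62 in those of the second, against 0.63 for Fadd fl/fl and 0.47 for Casp8 fl/fl mice. The SE of 0.54 rests on 1 spread shared by all 10 groups, here and below. It is too small for differences of the widest groups, which include CASP8 IEC-KO of the second series (SD 1.28). The mean of the 3 male FADD IEC-KO mice of the second series was 9.76 and that of the 2 females 7.18, while in the first series it was 9.29 in 2 males and 9.94 in 3 females.

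The CASP8 IEC-KO mean was nearer to the floxed mean than to the FADD IEC-KO mean in the first series, but not in the second. In the first series, replicates 16 to 20 had Pla2g2a signals of 6.15, 8.13, 6.66, 7.19 and 7.17, and their mean was above that of Fadd fl/fl by 1.51 (SE 0.54). In the second series, replicates 87, 92, 100, 104 and 108 had 8.77, 6.78, 7.05, 8.77 and 5.89, and their mean was above that of Casp8 fl/fl by 1.73 (SE 0.54). In each series the lowest CASP8 IEC-KO array lay within the floxed range and the other 4 lay above it. These comparisons share their floxed arrays with those of FADD IEC-KO. Set against FADD IEC-KO mice, the CASP8 IEC-KO mean was lower by a difference of -2.62 in the first series, where the groups did not overlap (1.55% of all genes had CASP8 IEC-KO below without overlap), and by -1.27 in the second, where they did overlap (SE 0.54 each). In the second series the 4 female CASP8 IEC-KO mice averaged 7.84, above the 2 FADD IEC-KO females at 7.18. The 1 male had 5.89, below the 3 FADD IEC-KO males at 9.76. In the first series the CASP8 IEC-KO mean was lower in both sexes.

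**Figure D1:**
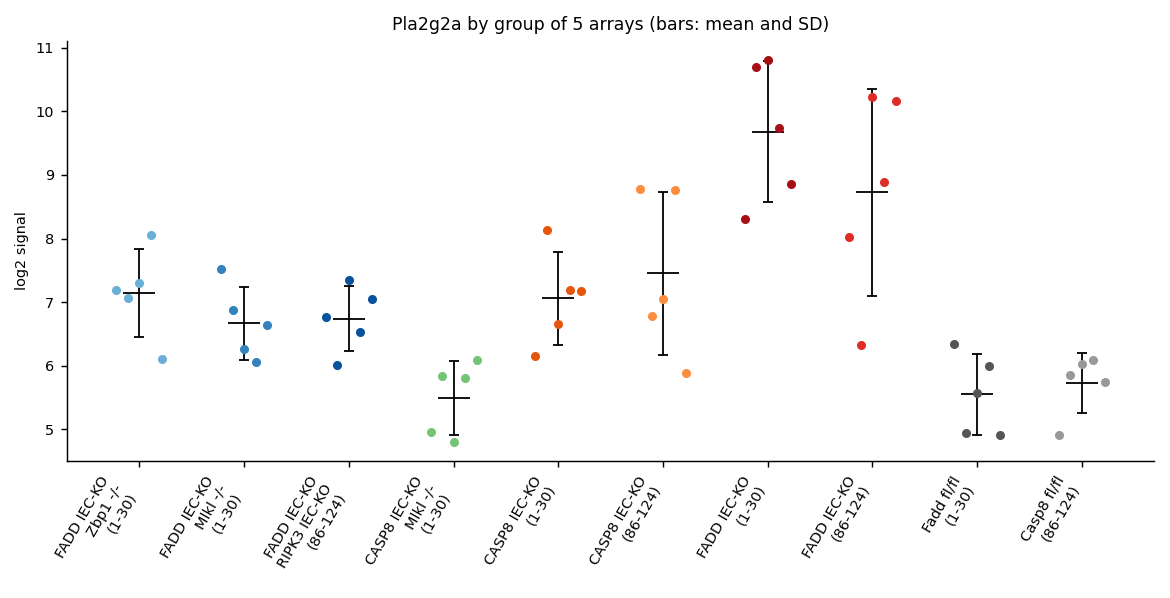
Log2 signal of Pla2g2a on each of the 50 arrays, 1 point per mouse, with the mean and SD of each group of 5; brackets give the range of title numbers. FADD IEC-KO arrays run between 8.32 and 10.81 in the first series and between 6.33 and 10.22 in the second, against 4.91 to 6.34 for Fadd fl/fl and 4.92 to 6.09 for Casp8 fl/fl arrays.

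All 3 co-deletions of FADD IEC-KO had lower Pla2g2a means than FADD IEC-KO mice of their series. In FADD IEC-KO Zbp1 -/- mice, replicates 1 to 5 had 7.19, 7.07, 7.31, 8.06 and 6.10. All lay below the lowest FADD IEC-KO array of the first series (8.32), and the difference was -2.54 (SE 0.54), with 2.77% of all genes without overlap in this direction. In FADD IEC-KO Mlkl -/- mice, replicates 11 to 15 had 7.52, 6.88, 6.26, 6.06 and 6.64, again all below FADD IEC-KO, with a difference of -3.01 (SE 0.54) and 2.28% of all genes without overlap. Both comparisons use the same FADD IEC-KO arrays. Without replicates 22 and 23 the differences were -1.82 and -2.30, and the FADD IEC-KO mean was 3.42 above that of Fadd fl/fl.

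In FADD IEC-KO RIPK3 IEC-KO mice, replicates 88, 93, 112, 113 and 123 had 6.76, 6.01, 7.35, 6.52 and 7.06. The difference from FADD IEC-KO mice of the second series was -1.99 (SE 0.54). The groups overlapped through FADD IEC-KO replicate 95 alone, since the other 4 FADD IEC-KO arrays were above all 5 co-deletion arrays. In CASP8 IEC-KO Mlkl -/- mice, replicates 6 to 10 had 4.96, 5.83, 4.80, 5.80 and 6.10, with a difference of -1.56 (SE 0.54) from CASP8 IEC-KO mice of the first series. These groups did not overlap, but only narrowly, as the highest co-deletion array was at 6.10 and the lowest CASP8 IEC-KO array at 6.15, and 2.09% of all genes showed the same lack of overlap.

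Against the floxed mice of the same series, Pla2g2a stayed above in the FADD co-deletions on average. The difference was 1.59 for FADD IEC-KO Zbp1 -/-, 1.12 for FADD IEC-KO Mlkl -/- and 1.01 for FADD IEC-KO RIPK3 IEC-KO, all with groups that overlapped, and -0.05 for CASP8 IEC-KO Mlkl -/- (SE 0.54 each). In order of mean level, the groups were FADD IEC-KO first series (9.68), FADD IEC-KO second series (8.73), CASP8 IEC-KO second series (7.45), FADD IEC-KO Zbp1 -/- (7.15), CASP8 IEC-KO first series (7.06), FADD IEC-KO RIPK3 IEC-KO (6.74), FADD IEC-KO Mlkl -/- (6.67), Casp8 fl/fl (5.73), Fadd fl/fl (5.55) and CASP8 IEC-KO Mlkl -/- (5.50). Every pair of neighbours in this order overlapped. Of the 14 comparisons within a series, Pla2g2a had no overlap in 6, with the first-named group above in 2 and below in 4. Between the series, the second-series mean minus the first-series mean was -0.96 for FADD IEC-KO and 0.39 for CASP8 IEC-KO, and Casp8 fl/fl minus Fadd fl/fl was 0.17 (SE 0.54 each).

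Pla2g5, the group V enzyme, hydrolyses phosphatidylcholine and binds heparan sulfate. In FADD IEC-KO mice of the first series it had 8.14, 7.66, 7.64, 8.19 and 8.08 (replicates 21 to 25), against 7.89, 7.26, 7.42, 7.59 and 7.39 in Fadd fl/fl mice (replicates 26 to 30). In FADD IEC-KO mice of the second series it had 8.19, 7.58, 8.07, 8.64 and 8.30 (replicates 89, 95, 117, 120 and 124), against 7.56, 7.81, 7.63, 7.86 and 7.32 in Casp8 fl/fl mice (replicates 86, 91, 98, 105 and 119). The groups overlapped in both series, with differences of 0.43 and 0.52 (SE 0.15 each). The 2 lowest FADD IEC-KO arrays of the first series for Pla2g5 were replicates 22 and 23, the 2 highest for Pla2g2a. The largest Pla2g5 difference was 0.59, in FADD IEC-KO Zbp1 -/- against Fadd fl/fl mice. Against FADD IEC-KO mice of the same series, the differences of the FADD co-deletions ran from -0.17 to 0.16 (SE 0.15 each), while those of Pla2g2a ran from -3.01 to -1.99 in the same comparisons.

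Pla2g10, the group X enzyme, is made in the colon epithelium as a precursor that is activated by cleavage. Its group means lay between 9.60 and 9.84, and its differences in the 14 comparisons ran from -0.20 to 0.25 (SE 0.10). Pla2g12a, of the weakly active group XII, had group means between 5.00 and 5.22 and differences from -0.22 to 0.21 (SE 0.14). Pla2g3, the group III enzyme related to that of bee venom, had group means between 6.59 and 7.21 and differences from -0.19 to 0.54 (SE 0.22). Its widest group was FADD IEC-KO of the first series, where arrays ran from 5.88 to 7.41 and replicate 22 was the lowest. Groups overlapped for Pla2g5, Pla2g10, Pla2g12a and Pla2g3 in all 14 comparisons, in which 1.23% to 9.20% of all genes had groups without overlap in either direction.

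**Figure D2:**
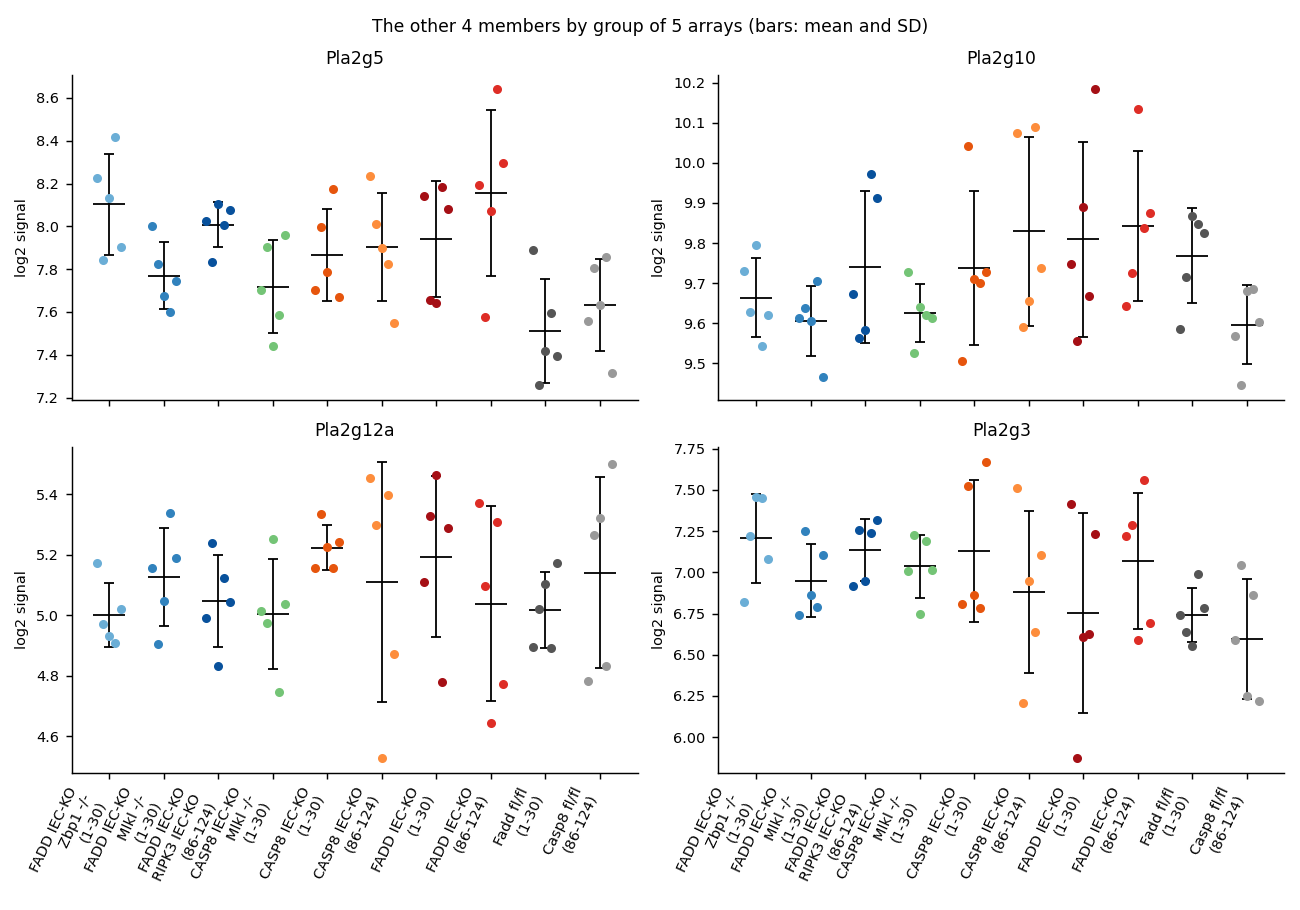
Log2 signal of Pla2g5, Pla2g10, Pla2g12a and Pla2g3 on each array, 1 point per mouse, with the mean and SD of each group of 5; the vertical axes differ between panels and do not start at 0. Group means span 9.60 to 9.84 for Pla2g10, 5.00 to 5.22 for Pla2g12a and 6.59 to 7.21 for Pla2g3.

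**Figure D3:**
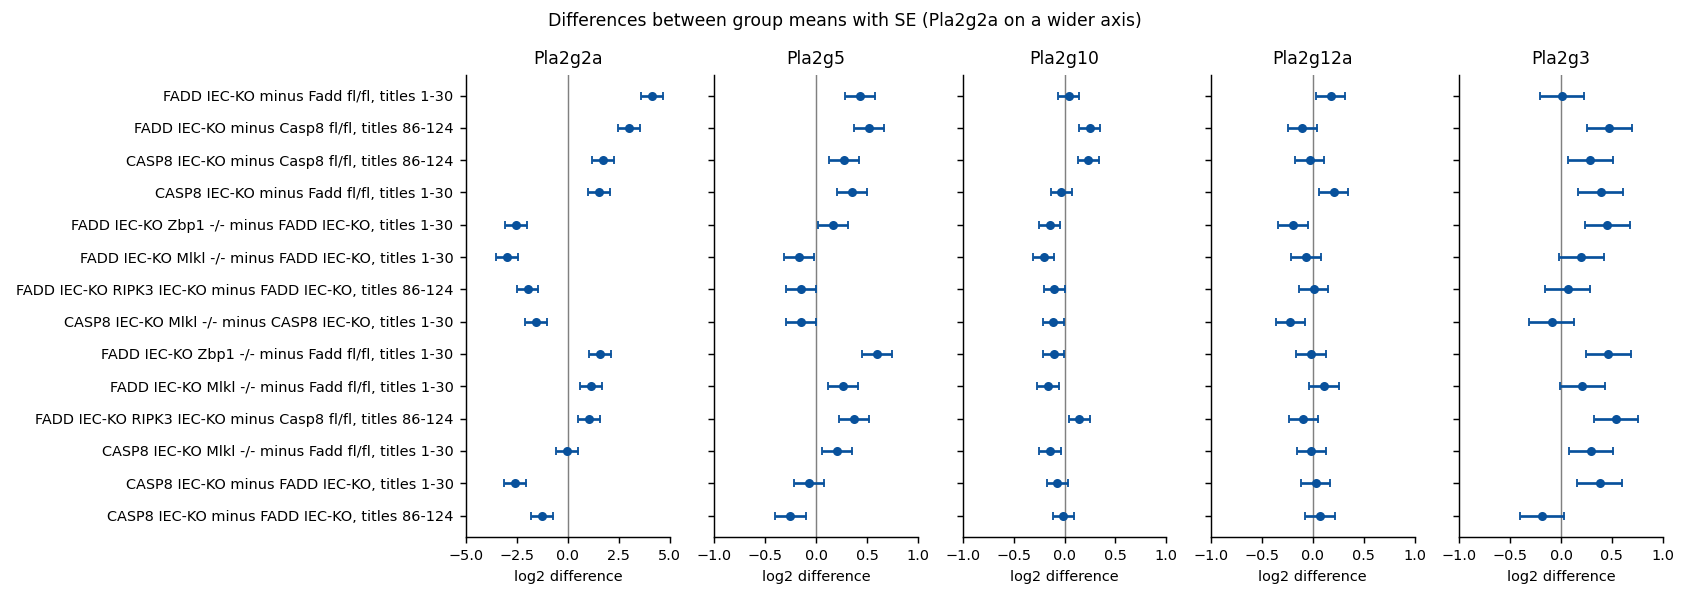
Difference between group means on the log2 scale for the 5 members in the 14 comparisons within a series, the first-named group minus the second, with bars for 1 SE of the linear model. The horizontal axis of Pla2g2a spans 5 times the range of the other 4 panels; its differences run from -3.01 to 4.13, and those of the other members stay between -0.25 and 0.59.

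Over the 50 arrays, Pearson's r of Pla2g2a was 0.58 with Pla2g5, 0.44 with Pla2g10, 0.10 with Pla2g12a and -0.02 with Pla2g3. After the group means were subtracted, the values were 0.45, 0.32, -0.01 and -0.16. These arrays share their groups, so the correlations describe the levels and carry no test.

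The 7 other genes on the secreted phospholipase list were Pla2g1b, Pla2g2c, Pla2g2d, Pla2g2e, Pla2g2f, Pla2g12b and Proca1. None passed in FADD IEC-KO against floxed mice in either series (limma, adjusted p under 0.05 over all genes). Of all genes, 8.59% passed upward and 10.1% downward in the first series, and 6.8% and 4.25% in the second. In each series 1 of the 7 had an unadjusted p under 0.05. Pla2g2d, a group IID enzyme made by immune cells, had the largest differences of the 7, with means of 5.89 ± 0.49 in FADD IEC-KO and 5.40 ± 0.49 in Fadd fl/fl mice (SD, n = 5 each; difference 0.48, SE 0.25, limma adjusted p = 0.194) and a second-series difference of 0.57 (SE 0.25, limma adjusted p = 0.141). Pla2g2e fell in FADD IEC-KO Zbp1 -/- against FADD IEC-KO mice by 0.50 (SE 0.15, limma adjusted p = 0.0253), and Pla2g2f fell in FADD IEC-KO Mlkl -/- against FADD IEC-KO mice by 0.37 (SE 0.11, limma adjusted p = 0.0424) and in CASP8 IEC-KO against FADD IEC-KO mice of the first series by 0.62 (SE 0.11, limma adjusted p = 0.00164; 3.44% of all genes fell there). Among the measured genes, Pla2g2e is the neighbour of Pla2g2a on one side, and Pla2g2f lies beyond Pla2g5 and Pla2g2d on the other. The Pla2g2e call was lost without FADD IEC-KO replicate 22 or 23 or without Zbp1 -/- replicate 1. The Pla2g2f call with Mlkl -/- was lost without FADD IEC-KO replicate 23 or 24 or without Mlkl -/- replicate 12, 13, 14 or 15. Both were also lost with the compared arrays alone and with the series pooled. The Pla2g2f call in CASP8 IEC-KO was lost with the compared arrays alone. Without replicates 22 and 23, 0 of the 7 passed in either co-deletion comparison of the first series, and 1 of the 7 passed, lower, in CASP8 IEC-KO against FADD IEC-KO mice of the first series.

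The genes outside the cluster, taken by position, were Ubxn10 on one side and Otud3 on the other. Ubxn10, a gene of cilium assembly, fell in FADD IEC-KO against Fadd fl/fl mice by 0.70 (SE 0.14, limma adjusted p = 0.000718), opposite in sign to Pla2g2a, and Otud3, a deubiquitinase gene, differed by 0.19 (SE 0.10, limma adjusted p = 0.224). In the second series Ubxn10 differed by -0.09 (SE 0.14, limma adjusted p = 0.754).

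**Figure D4:**
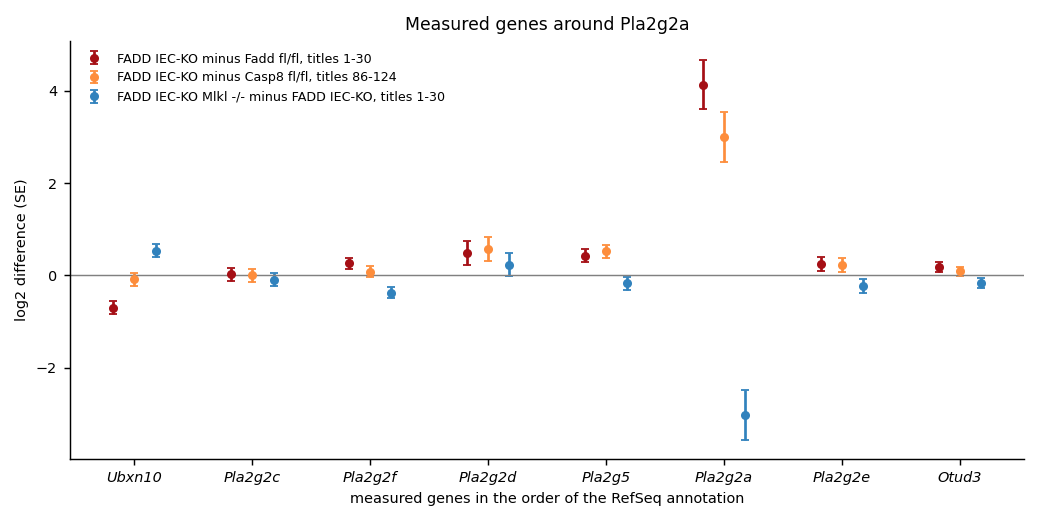
Log2 difference with 1 SE for the measured genes around Pla2g2a in the order of the RefSeq annotation, for FADD IEC-KO against floxed mice in each series and for FADD IEC-KO Mlkl -/- against FADD IEC-KO mice. Pla2g2a stands at 4.13, 3.00 and -3.01, while Pla2g5, which spans it, stands at 0.43, 0.52 and -0.17, and Ubxn10 at -0.70, -0.09 and 0.54.

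The genes most like Pla2g2a by Pearson's r over 50 arrays were Wars (0.92), Ddah1 (0.91), Ripk3 (0.90), Tgtp2 (0.90), Spink4 (0.89), Asns (0.89), Clca4b (0.89), Lpo (0.89), Smpdl3b (0.88) and AI506816 (0.88). Wars is the tryptophan tRNA ligase gene, Ddah1 breaks down methylated arginine, Tgtp2 is an interferon-inducible GTPase, Spink4 is a goblet cell gene, Asns makes asparagine, and Lpo encodes a secreted peroxidase. Ripk3 is deleted in the epithelium of 1 of the 10 groups. Ranked by Spearman's rho instead, 3 of the 10 stayed among the first 10, and 6 did after group means were subtracted. Their own differences in FADD IEC-KO against Fadd fl/fl mice ran from 0.73 for AI506816 to 4.65 for Clca4b, beside 4.13 for Pla2g2a.

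Neutrophil markers went with Pla2g2a only in part. The mean of 6 markers was 4.67, 9.39, 7.38, 5.16 and 5.20 in FADD IEC-KO replicates 21 to 25, against 4.27 to 4.40 in Fadd fl/fl mice. In FADD IEC-KO mice of the second series it was 4.35, 4.26, 8.08, 4.43 and 6.22 (replicates 89, 95, 117, 120 and 124), against 4.40 to 4.51 in Casp8 fl/fl mice. Replicates 89 and 120 had neutrophil means close to the floxed range, and their Pla2g2a signals of 8.02 and 8.89 were above every floxed array. In the FADD co-deletions, the neutrophil mean ran from 4.14 to 4.62. Counts of higher or lower markers below are limma calls at an adjusted p under 0.05. Against floxed mice, 8.59% of all genes rose and 10.1% fell in FADD IEC-KO of the first series. In the second series 6.8% rose and 4.25% fell. Paneth cell markers, a list of 8 genes, had a mean between 4.64 and 5.51 on every array, with 2 of 8 higher in FADD IEC-KO against Fadd fl/fl mice and 0 of 8 in the second series. Smooth muscle markers had a mean of 9.74 to 11.23 in FADD IEC-KO mice of the first series, against 11.33 to 11.55 in Fadd fl/fl mice, with 7 of 7 lower; in the second series it was 9.51 to 11.37 (median 11.13) in FADD IEC-KO, against 11.22 to 11.48 in Casp8 fl/fl mice, where the groups overlapped and 3 of 7 were lower. Macrophage markers had a mean of 7.55 to 8.22 in FADD IEC-KO mice of the first series, against 7.06 to 7.75 in Fadd fl/fl mice, with 5 of 6 higher, and 4 of 6 were higher in the second series. B and plasma cell markers had a mean of 6.68 to 8.62 in FADD IEC-KO mice of the first series, against 5.67 to 7.16 in Fadd fl/fl mice, with 2 of 4 higher, and 0 of 4 passed in the second series. In CASP8 IEC-KO against FADD IEC-KO mice of the first series, 6 of 6 neutrophil, 3 of 6 macrophage, 4 of 7 goblet cell and 1 of 4 B and plasma cell markers were lower (3.44% of all genes). In the same comparison 7 of 7 smooth muscle and 2 of 6 colonocyte markers were higher (3.31% of all genes). The part of these markers in the Pla2g2a levels was not tested.

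**Figure D5:**
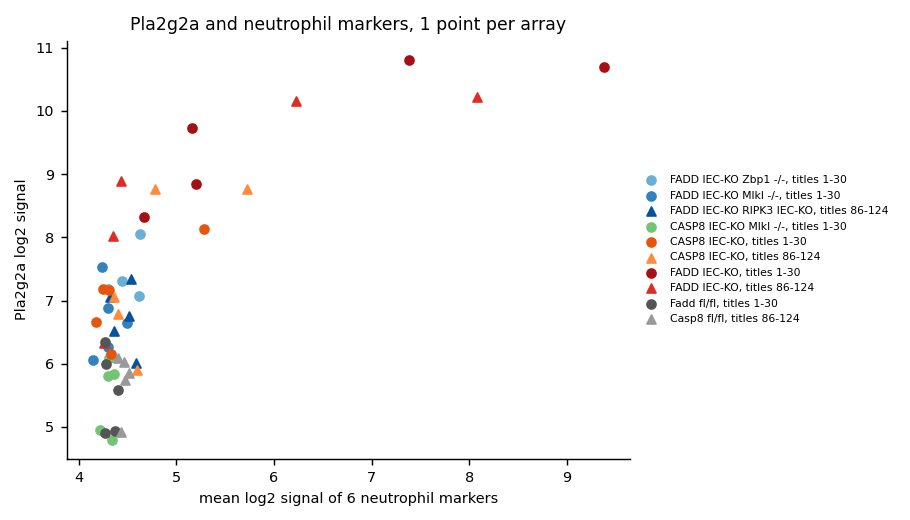
Log2 signal of Pla2g2a against the mean log2 signal of 6 neutrophil markers, 1 point per array, circles for the first series and triangles for the second. The arrays with a neutrophil mean of 6.22 or more are FADD IEC-KO replicates 22, 23, 117 and 124, all with Pla2g2a above 10; below a neutrophil mean of 5, Pla2g2a runs from 4.80 to 8.89.

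The genes around these enzymes were read from 9 lists with 106 measured genes. In FADD IEC-KO against Fadd fl/fl mice, 22 of the 106 rose and 9 fell (8.59% of all genes rose and 10.1% fell), while in the second series 11 rose and 0 fell (6.8% and 4.25%). Most of the surplus of rises came from 2 lists. Of the 16 antibacterial secreted proteins 8 rose and of the 8 cytokines that induce Pla2g2a in cultured cells 5 rose, with medians of 0.98 and 1.26, beside -0.02 over all genes. In the other 7 lists, of phospholipases and lipid mediators, 9 of 82 genes rose and 9 fell, or 11.0% each way, which is near the background. Without replicates 22 and 23 the 31 calls of the first series were 6, and without replicate 22 alone they were 19. The 11 calls of the second series were 5 without FADD IEC-KO replicate 117 and 7 without replicate 124.

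Among the antibacterial proteins and cytokines, Retnlb, a goblet cell protein active against Gram-negative bacteria, averaged 8.19 ± 2.33 in FADD IEC-KO and 2.96 ± 0.35 in Fadd fl/fl mice (SD, n = 5 each, limma difference 5.23). Pglyrp1, which binds bacterial cell walls, averaged 10.93 ± 0.42 in FADD IEC-KO and 9.75 ± 0.26 in Fadd fl/fl mice (SD, n = 5 each; difference 1.17, limma adjusted p = 0.000831). Tnf, an inducer of Pla2g2a in cultured cells, averaged 7.23 ± 1.09 in FADD IEC-KO and 4.91 ± 0.34 in Fadd fl/fl mice (SD, n = 5 each; difference 2.32, limma adjusted p = 0.000275). These 3 still passed without replicates 22 and 23, whereas S100a8 (3.82, a subunit of the neutrophil protein calprotectin), Lcn2 (2.69, an iron-siderophore binder), Il1b (3.55) and Il1a (2.19) did not. In the second series Pglyrp1 rose by 1.13, Retnlb by 2.44, Tnf by 1.59 and Il1b by 2.56. The Pglyrp1 call held in every alternative run. The Tnf call was lost without FADD IEC-KO replicate 117 and with the compared arrays alone. The Retnlb call was lost without FADD IEC-KO replicate 117 or 124 or Casp8 fl/fl replicate 86, 91, 105 or 119. The Il1b call was lost without FADD IEC-KO replicate 117 or 124 or any 1 of the 5 Casp8 fl/fl arrays. The Retnlb and Il1b calls were also lost with the compared arrays alone and in a robust fit with a variance trend.

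Among the lipid genes, Pla2g4f, an intracellular phospholipase A2, averaged 7.56 ± 0.43 in FADD IEC-KO and 6.97 ± 0.13 in Fadd fl/fl mice (SD, n = 5 each; difference 0.59, SE 0.17, limma adjusted p = 0.0102). Lpar1, a receptor for lysophosphatidic acid, fell to 8.94 ± 0.38 in FADD IEC-KO, against 9.69 ± 0.12 in Fadd fl/fl mice (SD, n = 5 each; difference -0.76, SE 0.13, limma adjusted p = 0.000119). Both passed without replicates 22 and 23, as did Dcn, a proteoglycan, which fell by 0.60 (SE 0.17, limma adjusted p = 0.00887). The Pla2g4f call was lost without FADD IEC-KO replicate 25 and with the compared arrays alone. Lpcat2 and Lpcat4, which reacylate lysophospholipids, rose by 0.37 and 0.64, and Hpgd and Ptgis, of prostaglandin breakdown and prostacyclin synthesis, fell by 0.63 and 0.36, but none of these 4 passed without those 2 arrays. In the second series Lpcat2 rose to 8.11 ± 0.13 in FADD IEC-KO mice, against 7.49 ± 0.18 in Casp8 fl/fl mice (SD, n = 5 each; difference 0.62, SE 0.10, limma adjusted p = 7e-05). The 12 lipoxygenase and leukotriene enzymes had 0 limma calls in both series, with 3 and 2 genes at an unadjusted p under 0.05.

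In FADD IEC-KO Zbp1 -/- against FADD IEC-KO mice, 2 of the 106 genes rose and 17 fell (5.61% and 5.14% of all genes), and in FADD IEC-KO Mlkl -/- 1 rose and 14 fell (2.91% and 2.93%). In both, 6 of the 16 antibacterial proteins and 4 of the 8 cytokines fell. Without replicates 22 and 23 the 19 and 15 calls were 2 and 0. Leaving out 1 FADD IEC-KO array gave, for Zbp1 -/- and Mlkl -/- in that order, 30 and 24 calls without replicate 21, 8 and 9 without replicate 22, and 10 and 8 without replicate 23. In FADD IEC-KO RIPK3 IEC-KO against FADD IEC-KO mice of the second series, Lpcat2 alone passed, with a difference of -0.63 (SE 0.10, limma adjusted p = 0.00081; 0.595% of all genes fell and 0.159% rose); 3 genes passed without FADD IEC-KO replicate 89 or 95, and 2 without replicate 120. CASP8 IEC-KO against Casp8 fl/fl mice had 4 rises and 1 fall (1.8% and 0.662%), among them Pla2g4f (0.59, SE 0.17, limma adjusted p = 0.0437), Lpcat3 and Lpcat4 (0.42 and 0.63, limma adjusted p = 0.0248 each) and Pglyrp1 (0.96, SE 0.25, limma adjusted p = 0.0292). These 5 calls were 0 without CASP8 IEC-KO replicate 87 or 104, 9 without replicate 108, and 1 and 3 without Casp8 fl/fl replicates 119 and 91. The Pla2g4f call was also lost without CASP8 IEC-KO replicate 92 or 100 or Casp8 fl/fl replicate 91, 105 or 119. It was lost as well with the compared arrays alone, with variance weights and with the series pooled. In CASP8 IEC-KO Mlkl -/- against CASP8 IEC-KO mice there were 0 limma calls among the 106 genes. At that adjusted threshold 0.128% of all genes rose and 0.292% fell. At an unadjusted p under 0.05 there were 11 of the 106. In CASP8 IEC-KO against Fadd fl/fl mice of the first series there were 0 calls (0.0564% and 0.0667% of all genes). Of the 106 genes, 15 had an unadjusted p under 0.05. The shares of all genes at an unadjusted p are not given, so the unadjusted counts here, above and below have no background beside them.

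In CASP8 IEC-KO against FADD IEC-KO mice of the first series, where Pla2g2a was lower, 2 of the 106 genes rose and 14 fell (3.31% and 3.44% of all genes), of which 7 were antibacterial proteins and 4 cytokines. Pla2g7, which cleaves platelet-activating factor, fell by 0.90 (SE 0.25, limma adjusted p = 0.0205), and Alox5ap, the partner protein of the leukotriene-forming lipoxygenase, fell by 0.40 (SE 0.12, limma adjusted p = 0.0387). The Alox5ap call was lost without FADD IEC-KO replicate 22 or 23, without CASP8 IEC-KO replicate 16, 18, 19 or 20, with variance weights and with the series pooled. The Pla2g7 call was lost without FADD IEC-KO replicate 22 or 23. Both calls were also lost with the compared arrays alone. Without replicates 22 and 23 the 16 calls were 1. Leaving out 1 array gave 28 without FADD IEC-KO replicate 21, 4 and 6 without replicates 22 and 23 in turn, and 9, 8, 10 and 10 without CASP8 IEC-KO replicates 16, 18, 19 and 20 in turn. In FADD IEC-KO Zbp1 -/- against Fadd fl/fl mice, Lpcat3 rose by 0.55 (limma adjusted p = 0.00495) and Sdc4, a heparan sulfate proteoglycan, fell by 0.86 (limma adjusted p = 2.78e-05), and these were the calls among the 106 genes (0.498% and 0.575% of all genes). The other comparisons had 0 limma calls among the 106 genes. At an unadjusted p under 0.05 there were 8 in FADD IEC-KO Mlkl -/- against Fadd fl/fl (0.159% of all genes passed the adjusted threshold), 6 in FADD IEC-KO RIPK3 IEC-KO against Casp8 fl/fl (0.0769%), 8 in CASP8 IEC-KO Mlkl -/- against Fadd fl/fl (0.0462%) and 14 in CASP8 IEC-KO against FADD IEC-KO mice of the second series (0.164%). The difference between Mlkl loss in CASP8 IEC-KO and Mlkl loss in FADD IEC-KO mice was tested as an interaction. It had 0 calls among the 106 genes (0.0154% of all genes passed the adjusted threshold). Of the 106 genes, 18 had an unadjusted p under 0.05. The shares printed beside these unadjusted counts belong to the adjusted threshold and are not their background.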

How the data were processed

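Whole-colon RNA of 50 mice, 1 Affymetrix array each, was read from the deposited log2 signals per probe set, made by the authors in Expression Console and Transcriptome Analysis Console per the submitters' processing notes; neither their versions nor how arrays were normalized is given in the sources used here. Array medians ran from 6.41 to 6.47, and no detection calls were used, so the number of arrays limits the precision. Of 22142 probe sets, 19527 had 1 gene symbol and 2615 none; the probe set of highest mean was kept per symbol, which dropped 33 and left 19494 genes. Gene names and order are from RefSeq GRCm38.p6.

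A linear model with 1 mean per genotype and title-number series (10 groups) was fitted with limma 3.58.1 in R 4.3.3 to all 50 arrays together (40 residual degrees of freedom), checked on simulated data, with Benjamini-Hochberg adjustment over all genes and a threshold of 0.05. SEs come from this fit, in which all groups share 1 spread per gene, so they do not follow the wider spread of some groups. The members and lists were chosen with earlier results of these data known, so the members were not tested and the lists' counts are descriptions. Named were the members, the other secreted phospholipases, of each list up to 4 genes with the smallest adjusted p among those that passed (or the 1 with the largest difference), the 10 genes most like Pla2g2a, the targeted genes and up to 3 markers of a cell type list. Ubxn10 and Otud3 were added by position. Alternatives were leaving out each array, or replicates 22 and 23, other normalizations and a filter on dim genes. Others were variance weights, a robust fit with a variance trend, a sex covariate, the compared arrays alone and both series pooled. The 2 floxed lines, and series and genotype in comparisons across series, cannot be told apart.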

Additional observations from a re-analysis of the deposited data

Results flagged for a closer look

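Among the 5 members and the 7 other secreted phospholipases, 120 sets of 5 arrays were looked at for 1 array far from the other 4, and 4 were found; chance finds about 1 in 20. None was a member. Pla2g2c was 6.71 in FADD IEC-KO replicate 21, against 5.90 to 6.01 in the other 4 arrays of the group. Pla2g2d was 6.76 in FADD IEC-KO replicate 25, against 5.53 to 5.73 in the others. Pla2g1b was 4.32 in FADD IEC-KO Zbp1 -/- replicate 2, against 3.74 to 3.86. It was 4.12 on replicate 123 of FADD IEC-KO RIPK3 IEC-KO, against 3.91 to 3.96.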

How the results depend on the processing

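No alternative moved a Pla2g2a difference by as much as 1 SD between replicates. Over all alternatives, leaving out single arrays included, it ran from 3.42 to 4.47 in FADD IEC-KO against Fadd fl/fl mice, from 2.62 to 3.60 in FADD IEC-KO against Casp8 fl/fl mice, from -2.88 to -1.82 with Zbp1 -/- and from -3.35 to -2.30 with Mlkl -/- against FADD IEC-KO mice. The count of the 106 pathway genes that passed was less stable. For the comparisons with FADD IEC-KO on one side it depended on replicates 22 and 23: without both, 6 genes (31 with them) passed against Fadd fl/fl, 18 (11) against Casp8 fl/fl, 2 (19) with Zbp1 -/-, 0 (15) with Mlkl -/-, 5 (1) with RIPK3 IEC-KO, and 1 (16) and 1 (0) in CASP8 IEC-KO against FADD IEC-KO mice of the first and second series. The second-series counts changed because those arrays also set the common spread. Without the dimmest 40% of genes the counts were 12 for Zbp1 -/-, 7 for Mlkl -/-, 2 for RIPK3 IEC-KO and 9 for CASP8 IEC-KO against FADD IEC-KO mice of the first series. With group variance weights they were 2 in CASP8 IEC-KO against Casp8 fl/fl, 2 in CASP8 IEC-KO Mlkl -/- against CASP8 IEC-KO, and 5 and 2 in FADD IEC-KO Zbp1 -/- and Mlkl -/- against Fadd fl/fl mice. With the compared arrays alone they were 17 and 4 in FADD IEC-KO against Fadd fl/fl and Casp8 fl/fl, 0 in CASP8 IEC-KO against Casp8 fl/fl, 2 with Zbp1 -/-, 2 with Mlkl -/-, 1 in FADD IEC-KO Mlkl -/- against Fadd fl/fl and 0 in CASP8 IEC-KO against FADD IEC-KO mice of the first series. With both series pooled and a series term they were 22 in FADD IEC-KO and 2 in CASP8 IEC-KO against Casp8 fl/fl, 11 with Zbp1 -/-, 6 with RIPK3 IEC-KO, 2 in CASP8 IEC-KO Mlkl -/- against CASP8 IEC-KO and 19 in CASP8 IEC-KO against FADD IEC-KO mice of the second series. Apart from the fewer arrays or genes that some of these use, the cause was not tested. Shares of all genes under these alternatives are not given. The changes in count therefore cannot be read as particular to the 106 genes.

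Leaving out 1 array gave 19 to 38 calls in FADD IEC-KO against Fadd fl/fl, 5 to 16 against Casp8 fl/fl, 8 to 30 with Zbp1 -/-, 8 to 24 with Mlkl -/-, 1 to 3 with RIPK3 IEC-KO, 0 to 9 in CASP8 IEC-KO against Casp8 fl/fl, 0 to 1 against Fadd fl/fl, 0 to 1 in CASP8 IEC-KO Mlkl -/- against CASP8 IEC-KO, 4 to 28 and 0 to 1 in CASP8 IEC-KO against FADD IEC-KO mice of the first and second series, and 0 to 2 for the Mlkl interaction between CASP8 IEC-KO and FADD IEC-KO. Of the 10 genes most like Pla2g2a, 3 stayed under Spearman's rho and 6 after group means were subtracted. No named pathway gene that passed changed direction. Of the 70 untested member differences, 18 took both signs over the alternatives; 1 was of Pla2g2a (CASP8 IEC-KO Mlkl -/- against Fadd fl/fl, -0.22 to 0.14), 1 of Pla2g5 (FADD IEC-KO Zbp1 -/- against FADD IEC-KO, -0.03 to 0.23), 4 of Pla2g10, 7 of Pla2g12a and 5 of Pla2g3. No paired analysis was possible because no title number occurs in more than 1 group. Without detection calls, dim genes such as Pla2g12a and Pla2g1b may lie near background, which these data cannot show.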
